A study of Gallus gallus with 10 samples.

Results

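Exogenous Otx2 was supplied to the whole epiblast of chicken embryos. The posterior trunk that formed under it (OT) is compared here with the midbrain-hindbrain region of control embryos (CH). Within CH, the midbrain lies in the domain that Otx2 marks and the hindbrain lies behind it. The members were chosen by sample name, with no rule on measured values but with earlier results of these data known. They were the OT1 and OT2 pools against the CH1 and CH2 pools, 4 of the 10 samples of the series. The control trunk (CT1 and CT2) gave the starting level of each gene. Every sample was a pool of tissue from 4 embryos, collected at st. 10 to 11, and electroporation, where done, was at st. 4 to 5. OT embryos received the vector pCAGGS-mOtx2, which drives the mouse Otx2 cDNA from the broadly active CAGGS promoter, together with pCAGGS-EGFP, and the tissue taken corresponded in position to the sinus rhomboidalis. CH embryos received pCAGGS-EGFP and a vector with no insert, and the forebrain was left out of the dissected tissue. CT was the sinus rhomboidalis of control embryos, but the labels do not settle which CT pool was electroporated: the title of CT1 says that it was not although its treatment entry names the EGFP vector, and the treatment entry of CT2 says that it was not. The midbrain-hindbrain region of embryos with exogenous Otx2 (OH1, OH2) and the posterior area opaca, the extraembryonic rim of the blastoderm, from controls (CA) and from embryos given Otx2 (OA) are used as further points of reference, CA and OA with a single pool each.

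Otx2 is a homeodomain transcription factor that marks the forebrain and midbrain, and its posterior limit meets the domain of Gbx2 at the isthmus, the midbrain-hindbrain boundary, where Fgf8, En1, En2, Pax2 and Pax5 are active. The sinus rhomboidalis is the open caudal end of the neural plate, which holds the progenitors that add spinal cord and paraxial mesoderm under the action of Wnt, Fgf, Cdx and Tbxt genes, and whose descendants carry an increasing set of HOX genes. Later in development Otx2 and its relative Crx also act in photoreceptors. The question set by the comparison is how much of the brain profile the trunk tissue carried once Otx2 was present, and what it carried beyond that profile.

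Transcript levels are TPM, which scales the reads of a gene by its length and by the total of the sample. Counts on genes ran from 28606038 to 40806402 per sample, and intervals or limits from counts cover counting error only. In pooled tissue, fewer cells of a type and less RNA per cell cannot be told apart. Pools are separate samples in the labels, and the p-values measure the spread between such pools. Mouse Otx2, which checks the labels, was at 334.2 and 529.2 TPM in OT, with 0 reads in CH and CT, so that its level in OT was at least 2067-fold above the limit set in CH by 3 reads per pool. EGFP was read at 1.12 TPM (12 reads) in CT1 and 15328 TPM in CT2, against 5904 and 9062 TPM in OT and 7368 and 3977 TPM in CH. By these reads, CT2 carried the EGFP vector and CT1 held almost none of it. The CT pools that set the starting level were therefore not alike in electroporation.

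In OT compared with CH, 1020 of 16611 tested genes (6.14%) were called, which means that the quasi-likelihood test of edgeR gave an adjusted p under 0.05, the p-values being adjusted by the Benjamini-Hochberg method across the 16611. The called genes comprised 621 (3.74%) with a higher level in OT and 399 (2.4%) with a lower one. The unadjusted p was under 0.05 for 4626 genes. For comparison, 1293 genes (7.78%) were called between CH and CT, 810 (4.88%) higher and 483 (2.91%) lower in CH, and 1118 (6.73%) between OT and CT, 712 (4.29%) higher and 406 (2.44%) lower in OT. These comparisons share their pools. The number called between OT and CH rested on single pools, being 12 without CH1, 144 without CH2, 198 without OT1, 2219 without OT2, 362 without OH1 and 356 without OH2, and 111 when only the CH and OT pools were fitted. In each of these fits, every one of the 1020 genes that remained in the test kept its direction. This was largely fixed beforehand, since the 1020 were selected by their call on the same pools. The fits without OH1 or OH2, and with only CH and OT, also used unchanged OT and CH counts. The log2 fold changes of all tested genes had a median of 0. Fold changes are given with their standard error after the ± sign.

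By Euclidean distance on log2(TPM + 1) over 14677 genes, OT lay at 104.2 (SD 19.0 over 4 pairs of pools) from CH and at 97.5 (SD 12.1) from CT, and CT lay at 104.0 (SD 3.54) from CH. The OT pools were 74.0 apart, and OT2 was nearer to both CH pools (96.3 and 81.4) than OT1 was (123.8 and 115.2). The mean distance of OT from CH was thus within its spread of that of CT, while each distance of OT2 was below the lowest of the CT distances, 102.1. Along the line from CT to CH, taken gene by gene, OT1 covered a median of 35.2% and OT2 62.7% of the distance for the 810 genes higher in CH, and 54.4% and 68.1% for the 483 genes lower in CH. OT2 was above OT1 in 629 of the 810, and OT1 was above OT2 in 341 of the 483. Over all 16611 tested genes, OT2 was above OT1 in 9388 (56.5%) and OT1 above OT2 in 7152 (43.1%). These medians are descriptions, since the genes were chosen by the difference between CH and CT.

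The 810 genes that were higher in CH than in CT, called brain-side here, were sorted by what OT did. The name stands only for that difference between the dissected tissues. The 810 include 9 genes of the heart muscle list and 11 of the head mesoderm list, so the counts below are not counts of neural genes. In OT, 162 genes were lacked, which means called lower than in CH and not called higher than in CT. Another 45 lay part-way, called below CH and above CT, and 240 were reached, with no call against CH, a call above CT and an OT mean within 2-fold of CH. Only 8 were overshot, with a call above CH, and 355 were unresolved, that is, in none of these classes. Among the 483 trunk-side genes, which were lower in CH than in CT, 115 were kept above the CH level with no call below CT, 24 went part-way down, 142 were cleared to about the CH level, 2 fell below it, and 200 were unresolved. A further 157 genes with no call between CH and CT were called above both in OT, and 58 below both, while 317 were called above CH alone and 132 below CH alone. Without CH1, 6 genes were lacked and 4 part-way, with 0 overshot, kept or part-way down. Without CT1, 12 were reached and 8 cleared, and without OT2, 344 were lacked and 302 kept. The plot of mean OT against mean CH levels by class shows these sets.

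**Figure D1:**
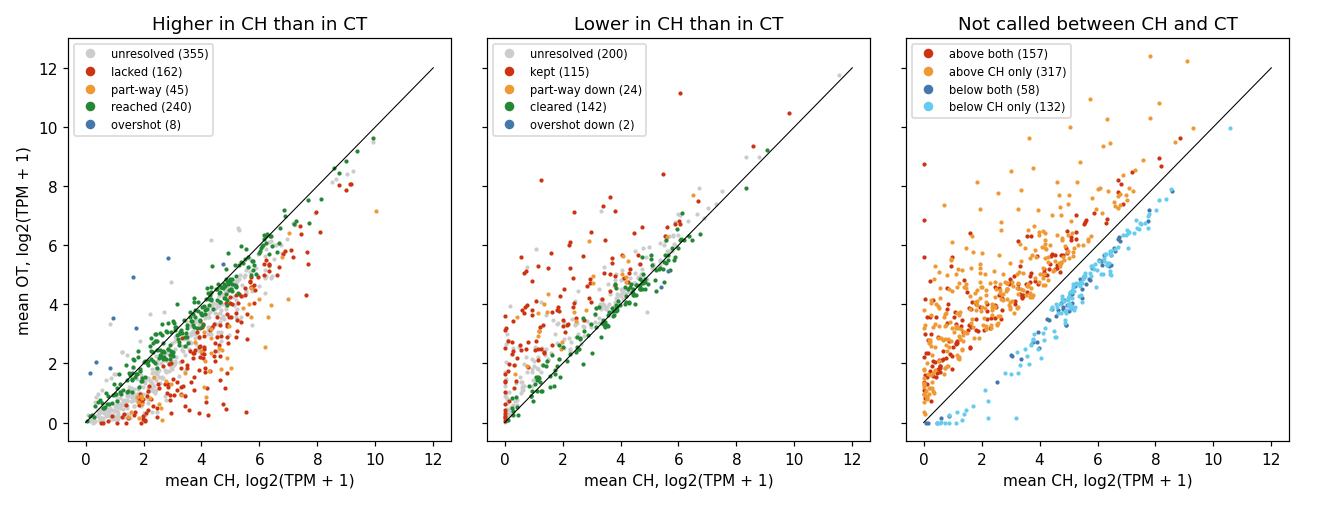
Mean transcript level of each gene in OT (y axis) against CH (x axis), both as log2(TPM + 1), for the genes higher in CH than in CT (left), lower in CH than in CT (middle) and not called between CH and CT (right). Each point is a gene, coloured by class with the number of genes in brackets, and the line marks equal levels. The 162 lacked genes lie below the line, the 240 reached genes along it, and the 317 genes above CH alone lie above it.

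The area opaca moved with several of these classes. CA and OA both exceeded every CH and CT pool in 436 (70.2%) of the 621 genes called higher in OT than in CH, compared with 2576 (15.5%) of all tested genes. The share was 87.7% of the 317 genes above CH alone, 65.0% of the 157 above both and 48.7% of the 115 kept genes, but 0 of the 162 lacked and 0 of the 8 overshot genes. Lacked and overshot genes were chosen as higher in CH than in CT, and few brain-side genes of any class had this pattern. It was seen in 3.33% of the reached and 1.13% of the unresolved brain-side genes, so the 0 counts say little about these classes. CA and OA were both below every CH and CT pool in 292 (73.2%) of the 399 genes called lower in OT, compared with 37.4% of all tested genes. The part of such tissue in the OT pools was not tested. Without the 436 genes, a restriction added after the data had been seen, 185 higher and 399 lower calls remained.

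Of 19 measured genes of the midbrain and isthmus, 7 were called lower in OT than in CH and 0 higher, and their log2 fold changes had a median of -1.35. Calls lower in OT made up 2.4% of all tested genes and 25.6% of all brain-side genes. Against CT, 10 of the 19 were called higher in CH, compared with 4.88% of all tested genes. Of these 10 brain-side genes, with which the 25.6% compares, 2 were lacked, 4 were part-way, 1 was reached and 3 were unresolved. The number called lower was 2 without CH1, 5 without CH2, 6 without OT1 and 12 without OT2.

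The endogenous Otx genes rose above the trunk level and stayed far below the brain level. Chicken OTX2 (chromosome 5, 55429563 to 55436665 on GRCg7w, with positions from the deposited table and chromosome numbers here and below from RefSeq's GRCg7b table) was at 80.2 and 63.2 TPM in CH, 0.0647 and 0.337 TPM in CT and 4.46 and 5.37 TPM in OT. The OT pools lay between those of CT and CH without overlap, at 6.85% of the CH mean, with a log2 fold change of -3.80 ± 0.29 (edgeR adjusted p = 0.00407) for OT against CH. In OA, 4 reads were assigned to chicken OTX2 beside 2595 reads of mouse Otx2, a TPM ratio of 0.0607%, against 1.34% in OT1 and 1.01% in OT2. OTX1, another Otx gene of the anterior brain, was at 19.9 and 13.7 TPM in CH, 0.109 and 0.214 TPM in CT and 0.710 and 0.969 TPM in OT, with a log2 fold change of -4.27 ± 0.39 (edgeR adjusted p = 0.00651).

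DMBX1, a homeobox gene of the midbrain and diencephalon (chromosome 8, 21356801 to 21379678), was the one gene of this list that OT reached. It was at 20.9 and 18.6 TPM in CH and 21.6 and 55.9 TPM in OT, and both CT pools had 0 reads, so that OT was at least 1405-fold above the limit set by 3 reads per CT pool. Both OT pools were above both CH pools, but the difference was not called, with a log2 fold change of 0.98 ± 0.39 (edgeR adjusted p = 0.167). DMBX1 was also read in OA, at 15.9 TPM, and was at 0 TPM in CA. In OH it was at 55.8 and 59.7 TPM, above both CH pools, and OT2 lay between these OH values. Reached rests here on an OT mean 1.96 times that of CH, just within the 2-fold limit, and on a missing call.

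The isthmic transcription factors stayed low. EN2 (chromosome 2, 7908433 to 7911716) was at 29.2 and 26.9 TPM in CH, 0.513 and 0.285 TPM in CT and 0.149 and 0.613 TPM in OT. The OT and CT pools overlapped and both lay far below CH, with a log2 fold change of -6.12 ± 0.58 (edgeR adjusted p = 0.00752) against CH and a log2 fold change of 0.01 against CT. EN1 was part-way, at 25.2 and 23.9 TPM in CH, 0 and 0.101 TPM in CT and 1.10 and 3.89 TPM in OT, a log2 fold change of -3.28 ± 0.61 (edgeR adjusted p = 0.0329). Both OT pools exceeded both CT pools, and OT2 was 3.55 times OT1. PAX5 was at 5.18 and 5.29 TPM in CH and 0.0953 and 0.0534 TPM in OT, the latter from 13 and 8 reads, with 0 reads in CT, the difference being a log2 fold change of -6.00 ± 0.44 (edgeR adjusted p = 0.00651).

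PAX2 was lower in OT than in both other tissues. It was at 23.8 and 33.9 TPM in CH, 14.4 and 11.8 TPM in CT and 4.73 and 6.07 TPM in OT, with a log2 fold change of -2.35 ± 0.18 (edgeR adjusted p = 0.00407) against CH and an edgeR adjusted p of 0.0158 against CT. GBX2, which marks the hindbrain side of the boundary, was raised from 5.01 and 3.005 TPM in CT to 14.5 and 32.9 TPM in OT (edgeR adjusted p = 0.0200 against CT) with CH at 50.2 and 73.3 TPM, and was not called against CH (log2 fold change -1.35, edgeR adjusted p = 0.0788). FGF8, the isthmic signal that is also made in the sinus rhomboidalis, was at 35.9 and 41.4 TPM in CH, 159.4 and 130.9 TPM in CT and 24.3 and 4.90 TPM in OT, so that OT2 was the lowest of the 6 pools, with no call against CH (log2 fold change -1.35, edgeR adjusted p = 0.208). LMX1B, which acts at the boundary and in dorsal midbrain, was at 17.9 and 22.6 TPM in CH and 3.91 and 12.7 TPM in OT, the OT pools overlapping the CT pools at 5.28 and 3.43 TPM. PAX3, a dorsal neural tube gene, was lower in OT than in CH, at 6.33 and 13.6 TPM in OT against 25.1 and 32.2 TPM in CH, although CT (22.6 and 23.96 TPM) was not called against CH.

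**Figure D2:**
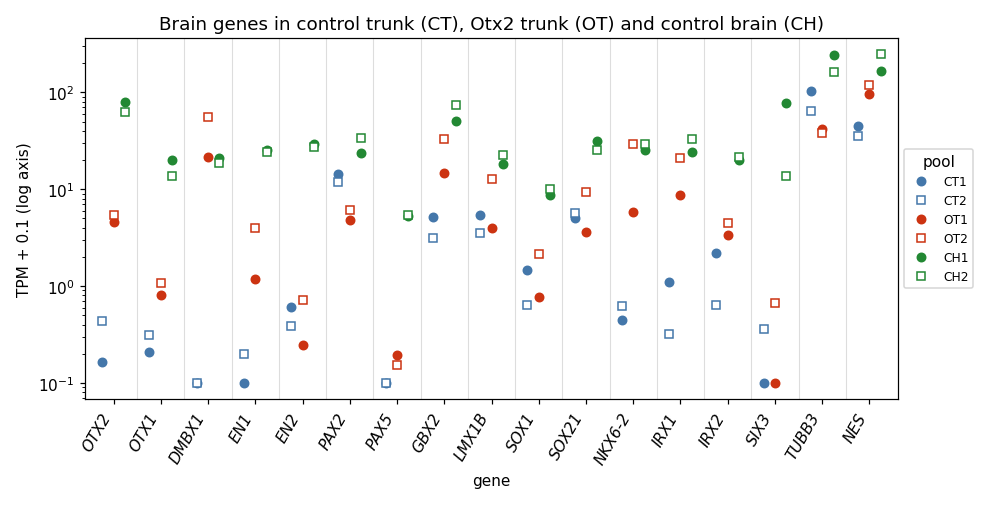
Transcript level of brain genes in each pool, as TPM + 0.1 on a log axis, for control trunk (CT, blue), Otx2 trunk (OT, red) and control midbrain-hindbrain (CH, green), with filled circles for the first pool and open squares for the second. DMBX1 is at or above the CH level in both OT pools, while EN2, PAX5, SIX3 and SOX1 in OT lie with or near the CT pools.

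Among the hindbrain genes, CYP26C1, a retinoic acid-degrading enzyme of the anterior hindbrain and head mesoderm, was part-way, at 119.9 and 131.1 TPM in CH, 4.36 and 3.40 TPM in CT and 13.7 and 20.1 TPM in OT, with a log2 fold change of -2.87 ± 0.24 (edgeR adjusted p = 0.00651). EPHA4, an ephrin receptor of alternate rhombomeres, was called below both, at 19.6 and 15.4 TPM in OT against 39.3 and 46.5 TPM in CH and 42.4 and 35.8 TPM in CT. Altogether 3 of 13 tested genes were called higher and 2 lower in OT than in CH, against 3.74% and 2.4% of all tested genes. The 3 higher were HOX genes, which were higher still in CT. Without CH1, 0 were called in either direction, and without CH2, 2 higher and 1 lower.

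Of 19 tested genes of the forebrain and eye field, 4 were called lower in OT than in CH and 0 higher, 18 had a negative log2 fold change, and the median was -2.41. The share called lower was 2.4% of all tested genes and 25.6% of all brain-side genes. The latter compares with the 6 brain-side genes of the list, which included the 4 called lower, all lacked. Among the 4 were SIX3, FEZF2 and SHISA2. SIX3, an eye field and forebrain homeobox gene, was at 78.3 and 13.5 TPM in CH and 0 and 0.564 TPM in OT, with CT at 0 and 0.259 TPM, the difference being a log2 fold change of -7.20 ± 1.42 (edgeR adjusted p = 0.0376). The summed level of this list was 524.5 TPM in CH1 and 268.5 in CH2, and RAX (12.7 and 0.178 TPM in CH), SIX6 (14.4 and 0.244 TPM in CH) and FEZF1 (7.54 and 0 TPM in CH) were read almost entirely in CH1. Their part in the comparison was not tested. The number called lower was 0 without CH1, 0 without CH2, 0 without OT1 and 3 without OT2. SHISA2, an inhibitor of Wnt and Fgf receptor maturation, was the most abundant of the 4, at 339.7 and 205.8 TPM in CH, 36.7 and 32.6 TPM in CT and 56.9 and 114.6 TPM in OT, with a log2 fold change of -1.67 ± 0.38 (edgeR adjusted p = 0.0477).

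Of 20 genes of the SoxB and pan-neural list, which mark neural tissue of any level, 6 were called lower in OT than in CH and 0 higher, with a median of -1.39. Among all tested genes 2.4% were called lower, and among all brain-side genes 25.6%. The latter compares with the 6 brain-side genes of the list, of which 3 were lacked and 0 part-way. OT2 was above OT1 in all 20, in 629 of the 810 brain-side genes and in 56.5% of all tested genes. SOX1 was at 8.65 and 9.88 TPM in CH, 1.38 and 0.533 TPM in CT and 0.664 and 2.05 TPM in OT, and SOX21 at 31.04 and 25.6 TPM in CH, 4.88 and 5.59 TPM in CT and 3.52 and 9.30 TPM in OT. Both are transcription factors of neural progenitors, and both were lacked, with a log2 fold change of -2.74 (edgeR adjusted p = 0.0438) for SOX1 and a log2 fold change of -2.13 (edgeR adjusted p = 0.0355) for SOX21. SOX2, the SoxB gene that is active in both the brain and the sinus rhomboidalis, was at 63.7 and 48.5 TPM in CH, 23.4 and 16.3 TPM in CT and 10.1 and 26.4 TPM in OT, both OT pools being below both CH pools without a call (log2 fold change -1.62, edgeR adjusted p = 0.0615). POU3F3, a neural POU factor, was at 5.73 and 7.57 TPM in CH and 0.0474 and 0.471 TPM in OT, close to CT at 0.0511 and 0 TPM. The number called lower was 0 without CH1, 0 without CH2, 1 without OT1 and 13 without OT2.

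NES, the intermediate filament of neural progenitors, was reached by the rule, at 166.1 and 247.1 TPM in CH, 45.2 and 35.1 TPM in CT and 95.01 and 118.2 TPM in OT, although both OT pools were below both CH pools (log2 fold change -0.92, edgeR adjusted p = 0.0565). SOX11, a SoxC factor of neural cells, was called below both tissues, at 48.3 and 60.5 TPM in OT against 98.6 and 91.99 TPM in CH and 98.5 and 87.3 TPM in CT. FABP7, a fatty acid-binding protein of neural progenitors that was higher in trunk than in brain, was cleared, from 1624 and 1302 TPM in CT to 548.4 and 650.3 TPM in OT, next to 528.2 and 532.3 TPM in CH.

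Of 14 neuronal genes, 2 were called lower in OT and 0 higher, with a median of -1.26, against 2.4% of all tested genes called lower. Both were lacked and were among the list's 6 brain-side genes, to be compared with 25.6% of all brain-side genes called lower. The number called lower was 0 without CH1, 1 without CH2, 0 without OT1 and 6 without OT2. TUBB3, the neuronal beta-tubulin, was at 243.5 and 163.4 TPM in CH, 103.6 and 64.3 TPM in CT and 41.7 and 38.2 TPM in OT, below both CT pools as well, with a log2 fold change of -2.33 ± 0.30 (edgeR adjusted p = 0.0176). ISL1, a homeobox gene of neurons and of head and heart mesoderm, was at 12.8 and 15.3 TPM in CH and 3.93 and 5.79 TPM in OT, with a log2 fold change of -1.57 (edgeR adjusted p = 0.0226). NEUROD4, a proneural gene, was reached, at 3.94 and 2.31 TPM in CH, 0.0833 and 0.272 TPM in CT and 1.84 and 2.003 TPM in OT.

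Of 18 genes that divide the neural tube from dorsal to ventral, 1 was called lower in OT than in CH and 0 higher, with a median of -0.53. Of all tested genes 2.4% were called lower, and of all brain-side genes 25.6%, which compares with 1 lacked gene among the list's 8 brain-side genes. For the 8 brain-side genes of this list, the median share of the distance from CT to CH was 34.7% in OT1 and 72.1% in OT2. NKX6-2, a ventral progenitor gene, was at 25.3 and 29.03 TPM in CH, 0.351 and 0.520 TPM in CT and 5.75 and 29.4 TPM in OT, and IRX1 at 24.4 and 32.7 TPM in CH, 0.990 and 0.221 TPM in CT and 8.58 and 20.8 TPM in OT. Both were reached, and OT2 was 5.12 times OT1 for NKX6-2. PAX6 was at 71.4 and 33.1 TPM in CH, 4.22 and 2.34 TPM in CT and 5.29 and 36.8 TPM in OT, OT1 next to the CT pools and OT2 among the CH pools, with no call (log2 fold change -1.36, edgeR adjusted p = 0.322). IRX2, another Iroquois homeobox gene, was the lower one and was lacked at 3.28 and 4.33 TPM in OT against 19.8 and 21.5 TPM in CH (log2 fold change -2.39, edgeR adjusted p = 0.0418). Dorsal BMP4, MSX1 and MSX2, higher in CT than in CH, were all cleared, with MSX2 going from 144.0 and 123.4 TPM in CT to 30.4 and 21.1 TPM in OT beside 42.5 and 46.2 TPM in CH.

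Of 17 neural crest genes, which mark the migratory cells that leave the dorsal neural tube, 4 were called lower in OT than in CH and 0 higher, and the median was -0.70. For comparison, 2.4% of all tested genes and 25.6% of all brain-side genes were called lower. The list held 7 brain-side genes, of which 1 was lacked and 2 were part-way. SOX10 was at 29.9 and 32.4 TPM in CH, 0.0224 and 0.0195 TPM in CT and 0.789 and 4.36 TPM in OT, a part-way rise with a log2 fold change of -3.59 (edgeR adjusted p = 0.0268) against CH. TFAP2B was lacked, at 25.2 and 31.996 TPM in CH, 3.27 and 5.77 TPM in CT and 2.01 and 2.34 TPM in OT, a log2 fold change of -3.51 ± 0.26 (edgeR adjusted p = 0.00407). FOXD3, an early crest factor, was at 0.729 and 7.90 TPM in OT with CT at 0 and 0.0477 TPM and CH at 20.7 and 24.2 TPM, and was not called against CH (log2 fold change -2.37, edgeR adjusted p = 0.127). The number called lower was 1 without CH1, 2 without CH2, 2 without OT1 and 9 without OT2.

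Of 13 tested head mesoderm genes, 11 were higher in CH than in CT, against 4.88% of all tested genes. Of these 11, 3 were lacked, 1 part-way, 3 reached and 4 unresolved. Of all 810 brain-side genes, 20% were lacked and 29.6% reached. The lacked genes were MSC, ALX4 and ISL1, with the myogenic regulator MSC at 15.5 and 12.4 TPM in CH and 0.308 and 0.181 TPM in OT and the homeobox gene ALX4 at 23.6 and 24.1 TPM in CH, 2.90 and 2.76 TPM in CT and 2.01 and 1.45 TPM in OT (log2 fold change -3.78, edgeR adjusted p = 0.00407). TBX1, of pharyngeal mesoderm, was part-way, at 21.01 and 29.6 TPM in CH, 0.770 and 0.146 TPM in CT and 5.49 and 3.55 TPM in OT (log2 fold change -2.31, edgeR adjusted p = 0.0227). The reached genes included TCF21 and CYP1B1. TCF21, a helix-loop-helix factor of head and other mesoderm, was at 9.05 and 10.3 TPM in CH, 0.547 and 0.591 TPM in CT and 3.12 and 6.96 TPM in OT, both OT pools lying between those of CT and CH. The summed level of the 13 genes was 269.9 and 282.9 TPM in OT, 438.3 and 429.2 in CH, 93.6 and 137.4 in CT, and 272.1 in CA. Without OT2, 8 of the 13 were called lower in OT, against 4 with all pools, and without CH1, CH2 and OT1 the number was 1, 2 and 2.

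Of the 6 most abundant reached genes, ACTC1, MYL2 and TNNT2 encode contractile proteins of the heart. ACTC1, cardiac alpha-actin (chromosome 5, 31749242 to 31754043), was at 143.5 and 1778 TPM in CH, 3.33 and 4.49 TPM in CT and 864.5 and 714.4 TPM in OT. The CH pools differed 12.4-fold, and both OT pools lay between them. MYL2, a myosin light chain, was at 71.8 and 792.3 TPM in CH, 0.804 and 0.780 TPM in CT and 325.9 and 373.6 TPM in OT, and TNNT2, cardiac troponin T, at 65.1 and 485.0 TPM in CH, 0.827 and 1.32 TPM in CT and 164.7 and 207.1 TPM in OT. The same order, with CH2 above both OT pools and both OT pools above CH1, was seen for each of these 3 genes. TBX5, a transcription factor of the heart, was at 3.79 and 24.9 TPM in CH and 8.34 and 11.3 TPM in OT, with 0 reads in CT1.

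Of 18 heart muscle genes, 0 were called between OT and CH by edgeR, 3 had an unadjusted p under 0.05 and 0 were called by DESeq2. Over all 16611 tested genes, 6.14% were called by edgeR, 4626 had an unadjusted p under 0.05 and 2984 were called by DESeq2. Against CT, 9 of the 18 heart muscle genes were called higher in CH, compared with 4.88% of all tested genes. Of these 9, 5 were classed as reached and 4 as brain-side unresolved. Of all 810 brain-side genes, 29.6% were reached and 43.8% unresolved. The list summed to 846.2 TPM in CH1, 4290 in CH2, 2108 in OT1, 2075 in OT2, and 557.5 and 618.7 in CT. The area opaca pools, at 515.7 and 498.3 TPM, were not higher than CT. Reached therefore means for these genes that OT lay within a wide range set by the 2 CH pools. Without CH1, 126 genes were reached in all, and without CH2, 102.

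The other genes among the 6 were TPM1, a tropomyosin, at 514.9 and 660.6 TPM in OT and 592.2 and 717.9 TPM in CH, ID2, an inhibitor of helix-loop-helix factors, at 480.8 and 432.9 TPM in OT and 494.9 and 516.3 TPM in CH, and MYL9, a myosin light chain of smooth muscle, at 406.4 and 371.5 TPM in OT and 367.3 and 397.7 TPM in CH. Their CT levels were lower by less than 2-fold. Of the 240 reached genes, OT2 was above OT1 in 180, against 629 of all 810 brain-side genes and 56.5% of all tested genes. The reached genes were thus not set apart in this from the other brain-side genes.

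The 6 most abundant lacked genes were VIM, MFAP2, CKB, SPARC, SHISA2 and SERPINH1. Lacked does not mean level with CT, since for VIM and SHISA2 both OT pools were above both CT pools without a call. VIM, an intermediate filament, was at 515.9 and 637.6 TPM in CH, 197.2 and 160.8 TPM in CT and 201.6 and 333.6 TPM in OT, and CKB, brain creatine kinase, at 524.8 and 489.3 TPM in CH, 189.5 and 165.4 TPM in CT and 189.5 and 271.0 TPM in OT. MFAP2, a microfibril component, was at 582.9 and 520.4 TPM in CH and 221.1 and 315.6 TPM in OT. SPARC, a collagen-binding matrix protein, and SERPINH1, a collagen chaperone, were at 248.8 and 278.5 TPM in OT and at 132.7 and 143.4 TPM in OT, each below both CH pools, with a log2 fold change of -0.66 (edgeR adjusted p = 0.0292) and a log2 fold change of -0.80 (edgeR adjusted p = 0.0391). FZD7, a Wnt receptor, was part-way, at 125.6 and 133.8 TPM in CH, 59.8 and 52.2 TPM in CT and 75.004 and 95.3 TPM in OT (log2 fold change -0.58, edgeR adjusted p = 0.0452). EYA2, a transcriptional cofactor of placodes and muscle precursors, was also part-way, at 74.1 and 92.2 TPM in CH, 5.22 and 4.73 TPM in CT and 12.9 and 16.4 TPM in OT, with a log2 fold change of -2.47 ± 0.14 (edgeR adjusted p = 0.00248).

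The largest decreases in OT below CH, among called genes of at least 5 TPM without overlap, included those of SIX3, LEUTX, EN2, SP9, PAX5, MSC, FOXL2, SIX2, TBX22, POU3F3 and COL9A3. FOXL2, a forkhead gene, was at 26.4 and 25.5 TPM in CH and 0.778 and 0.333 TPM in OT, with a log2 fold change of -5.41 (edgeR adjusted p = 0.0201). LEUTX, a homeobox gene, was at 25.3 and 9.85 TPM in CH and 0 and 0.406 TPM in OT. COL9A3, a collagen of cartilage and notochord, was at 30.2 and 24.1 TPM in CH and 1.17 and 1.36 TPM in OT, with a log2 fold change of -4.39 ± 0.25 (edgeR adjusted p = 0.00248). The highest CT value among these genes was that of COL9A3, at 2.20 and 1.90 TPM in CT.

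Genes that OT carried beyond the brain profile included a set of photoreceptor genes. Of 24 tested members of the photoreceptor list, 10 were called higher in OT than in CH and 0 lower, with a median of 2.63, against 3.74% of all tested genes called higher. The filter on low counts had left 24 of the 30 listed genes in the data. Members with 0 reads in CH and CT, such as ARR3, passed it only through pools given Otx2. Such members could not come out lower in OT, so the counts for this list are descriptions. Of the 24, 8 were called above both CH and CT, compared with 157 of all 16611 tested genes, 1 was overshot and 1 was classed as kept. The number called higher was 1 without CH1, 5 without CH2, 10 without OT1 and 11 without OT2.

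ARR3, cone arrestin (chromosome 4, 1232611 to 1239245), was at 73.5 and 154.3 TPM in OT, with 0 reads in CH and in CT. It was thereby at least 942.8-fold above the limit that 3 reads per pool set in CH (edgeR adjusted p = 0.0102). GNB3, the cone transducin beta subunit (chromosome 1, 77393592 to 77405290), was at 65.6 and 102.6 TPM in OT, 1.87 and 2.21 TPM in CH and 1.66 and 1.29 TPM in CT, with a log2 fold change of 5.19 ± 0.31 (edgeR adjusted p = 0.00248). The alpha and gamma subunits, GNAT2 and GNGT2, were at 9.23 and 12.7 TPM in OT and at 10.4 and 23.2 TPM in OT, against 0 and 0.146 TPM in CH and 0 and 0.515 TPM in CH. The cone transducin genes were thus read in OT at levels above each CH and CT pool.

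The phosphodiesterase that transducin activates was represented by PDE6C, its cone catalytic subunit, at 0.502 and 2.67 TPM in OT with 0 reads in CH, and by PDE6H, its cone inhibitory subunit, at 32.6 and 60.2 TPM in OT, 6.29 and 6.09 TPM in CH and 0.629 and 0.711 TPM in CT. PDE6H was the overshot member, with a log2 fold change of 2.91 ± 0.44 (edgeR adjusted p = 0.0223). GUCA1A, an activator of guanylate cyclase, was at 9.35 and 13.3 TPM in OT with 0 reads in CH, at least 137.7-fold above the CH limit. It was classed as kept because CT, at 0.853 and 0.285 TPM, was called above CH, although OT was called above CT (edgeR adjusted p = 0.0231). PDC, phosducin, was at 8.53 and 26.1 TPM in OT, and IMPG1, of the interphotoreceptor matrix, at 3.09 and 10.8 TPM in OT.

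Other photoreceptor genes were not called between OT and CH. SAG, rod arrestin, was at 0.486 and 0.810 TPM in OT and 0.496 and 0.498 TPM in CH. OTX5, listed by RefSeq as the chicken CRX, was at 1.96 and 2.42 TPM in OT and 3.30 and 1.92 TPM in CH (log2 fold change -0.24, edgeR adjusted p = 0.740). PDE6B, CNGA1 and RBP3 were listed at 0 in OT. NR2E3, a photoreceptor nuclear receptor, was at 3.95 and 13.99 TPM in OT and 0.553 and 1.01 TPM in CH, with both OT pools above both CH pools and no call (log2 fold change 3.28, edgeR adjusted p = 0.0504). OT2 was above OT1 in 22 of the 24, against 56.5% of all tested genes.

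The midbrain-hindbrain region with exogenous Otx2 also held these genes. ARR3 was at 16.6 and 31.6 TPM in OH, GNB3 at 36.9 and 55.6 TPM in OH, and PDE6H at 12.6 and 24.5 TPM in OH, and both OH pools were above both CH pools in 15 of the 24 genes, against 19.3% of all tested genes. OA was above CA in 21 of the 24 and in 59.3% of all tested genes, with ARR3 at 37.8 TPM in OA and 0 in CA. Members that passed the filter only through pools given Otx2 weigh on these counts, which are descriptions.

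**Figure D3:**
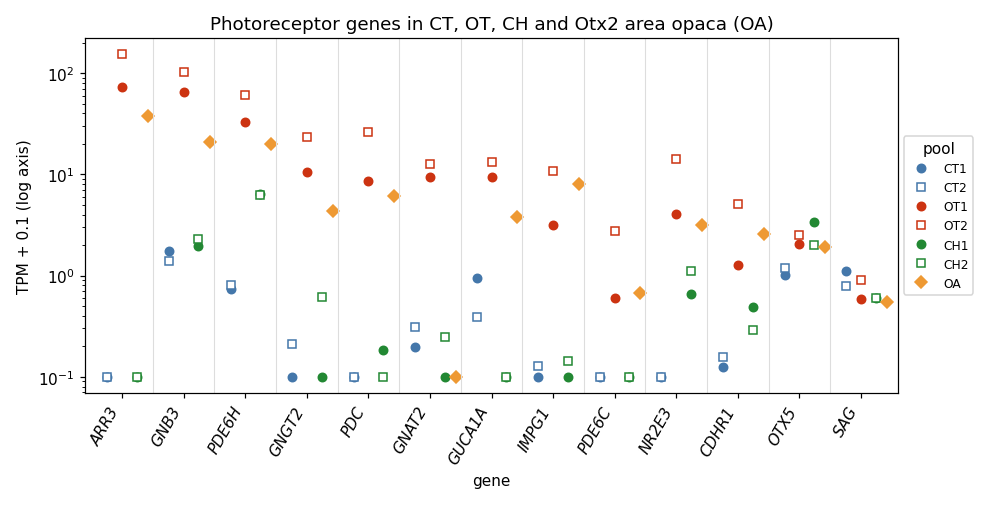
Transcript level of photoreceptor genes in each pool, as TPM + 0.1 on a log axis, for CT (blue), OT (red), CH (green) and the Otx2-electroporated area opaca (OA, orange diamonds), with filled circles for the first pool and open squares for the second. ARR3 is at 73.5 and 154.3 TPM in OT and at 0 in CH and CT, while SAG stays under 1 TPM in OT and CH.

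The other overshot genes with assigned symbols were SULF2, GBE, FCN3, CDHR1, MDGA1 and GABRA6. SULF2, an enzyme that edits heparan sulfate, was at 37.8 and 42.2 TPM in OT, 25.5 and 25.8 TPM in CH and 15.7 and 17.4 TPM in CT, with a log2 fold change of 0.67 ± 0.13 (edgeR adjusted p = 0.0332). CDHR1, a photoreceptor cadherin that had not been placed in the list, was at 1.17 and 5.01 TPM in OT and 0.391 and 0.187 TPM in CH (log2 fold change 2.51, edgeR adjusted p = 0.0466). FCN3, a ficolin, and MDGA1, a membrane-anchored neuronal protein, were at 5.64 and 10.7 TPM in OT and 2.14 and 3.03 TPM in OT, against 2.45 and 2.15 TPM in CH and 0.814 and 0.740 TPM in CH. All 8 overshot genes were also higher in both OH pools than in both CH pools, compared with 19.3% of all tested genes. The same was seen in 95 of the 240 reached, 93 of the 157 above both and 107 of the 317 above CH alone. Overshot genes were chosen as above these same CH pools, so low CH values favour both patterns. OT2 was above OT1 in all 8, against 629 of the 810 brain-side genes and 56.5% of all tested genes. GABRA6 and the unnamed eighth gene fell outside the rule for naming by abundance.

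Of 20 genes of the sinus rhomboidalis, 14 were lower in CH than in CT, against 2.91% of all tested genes. Of these 14, 3 were cleared, 4 were part-way down, 2 were kept and 5 were unresolved. In all, 7 of the 20 were called higher in OT than in CH and 0 lower, with a median of 1.38. The share called higher was 3.74% of all tested genes. Of all trunk-side genes it was 28.8%, which compares with the kept and part-way down genes among the 14. OT2 was above OT1 in 3 of the 20, against 56.5% of all tested genes. Of the 483 trunk-side genes, OT1 was above OT2 in 341. The number called higher was 0 without CH1, 0 without CH2, 6 without OT1 and 12 without OT2.

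TBXT, the T-box gene of posterior progenitors and notochord, was at 213.8 and 192.1 TPM in CT, 38.3 and 21.4 TPM in OT and 6.69 and 7.73 TPM in CH, with a log2 fold change of 2.10 ± 0.28 (edgeR adjusted p = 0.0196) against CH. TBX6, of presomitic mesoderm, was at 118.7 and 104.7 TPM in CT, 17.6 and 4.38 TPM in OT and 0.295 and 0.377 TPM in CH (log2 fold change 5.03, edgeR adjusted p = 0.0230). Both were far below CT yet above both CH pools. MSGN1 and EVX1 differed between the OT pools, MSGN1 at 12.97 and 0.805 TPM in OT and EVX1 at 27.5 and 1.02 TPM in OT, with CT at 83.2 and 87.7 TPM and 162.4 and 139.2 TPM, against 0 and 0.0947 TPM in CH and 0.107 and 0.173 TPM in CH, and neither was called against CH.

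AXIN2 and LEF1, which are induced by Wnt signalling, were cleared. AXIN2 was at 92.7 and 90.1 TPM in CT, 27.9 and 16.4 TPM in OT and 28.1 and 26.9 TPM in CH, and LEF1 at 155.3 and 127.4 TPM in CT, 35.1 and 34.5 TPM in OT and 47.2 and 55.1 TPM in CH. CYP26A1, the retinoic acid-degrading enzyme of the posterior neural plate, was at 31.04 and 23.2 TPM in CT, 8.79 and 12.5 TPM in OT and 4.94 and 5.96 TPM in CH, cleared by the rule with both OT pools above both CH pools. WNT8A was classed as kept, at 77.9 and 96.2 TPM in CT, 13.4 and 2.82 TPM in OT and 0 and 0.0658 TPM in CH, where the fall from CT missed the threshold (edgeR adjusted p = 0.0511).

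The Cdx genes did not move together. CDX4 was at 201.9 and 190.2 TPM in CT, 36.8 and 14.3 TPM in OT and 7.45 and 6.99 TPM in CH, part-way down. CDX2 (chromosome 1, 175983313 to 175987502) was at 119.2 and 132.6 TPM in CT, 110.1 and 31.4 TPM in OT and 9.05 and 10.9 TPM in CH, OT1 near CT and OT2 lower, with a log2 fold change of 2.86 ± 0.54 (edgeR adjusted p = 0.0330) against CH. CDX1 was above both, at 47.3 and 29.99 TPM in OT against 0.854 and 1.02 TPM in CH and 2.29 and 8.40 TPM in CT (log2 fold change 5.37, edgeR adjusted p = 0.0198). The area opaca held CDX1 at 27.8 and 66.4 TPM and CDX2 at 78.3 and 50.2 TPM in CA and OA, and the part of this in OT was not tested.

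All 28 tested HOX genes had a positive log2 fold change in OT over CH, and 23 of them were trunk-side, against 2.91% of all tested genes. The filter on low counts had left 15 of the 21 genes of groups 6 to 13 in the data. These 21 summed to only 18.8 and 15.3 TPM in CH, so OT could hardly lie lower for many of them. The shared sign is therefore a description. Of 13 genes of groups 1 to 5, 6 were called higher in OT than in CH, with a median of 1.74, and 10 were called lower in OT than in CT. Calls lower in OT than in CT made up 2.44% of all tested genes and 180 of the 483 trunk-side genes. Of the 13, 12 were trunk-side, and 6 of these were part-way down. Of 15 genes of groups 6 to 13, 3 were called higher in OT than in CH, with a median of 5.17, or 3.36 with genes at or under 3 reads per pool set to that limit. The 15 held 11 trunk-side genes, with 1 kept and 2 part-way down. Of all 483 trunk-side genes, 139 (28.8%) were called higher in OT than in CH, and of all tested genes 3.74%. Of these 15, 11 were called higher without OT2, 1 without OT1 and 0 without CH1 or CH2. For groups 1 to 5 the number was 0 without CH1, 2 without CH2 and 7 without OT1 or OT2.

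HOXB4 was at 122.2 and 101.5 TPM in CT, 34.5 and 61.8 TPM in OT and 14.5 and 17.1 TPM in CH. It was part-way down with a log2 fold change of 1.64 (edgeR adjusted p = 0.0203) against CH, and OT2 was the higher OT pool. HOXB8 (chromosome 27, 4534773 to 4536422) was at 592.4 and 497.5 TPM in CT, 117.0 and 23.4 TPM in OT and 6.48 and 6.55 TPM in CH, also part-way down, with a log2 fold change of 3.48 ± 0.70 (edgeR adjusted p = 0.0387). HOXA7 was at 852.1 and 664.9 TPM in CT, 112.0 and 3.89 TPM in OT and 1.30 and 0.979 TPM in CH, OT1 being 28.8 times OT2, and was not called (log2 fold change 5.56, edgeR adjusted p = 0.0603). For groups 6 to 13, the median share of the distance from CT to CH was 42.9% in OT1 and 90.6% in OT2, while for groups 1 to 5 it was 60.9% and 51.9%. In OT2 the posterior groups therefore lay nearer to CH than the anterior groups did, and in OT1 the order was the other way.

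HOXB1 and HOXD1 were the cleared members of the anterior groups and HOXB6 of the posterior ones, with HOXB1 at 89.1 and 78.3 TPM in CT, 17.04 and 27.6 TPM in OT and 7.99 and 18.9 TPM in CH. The area opaca also held HOX transcripts, with group 6 to 13 genes summing to 165.6 TPM in CA and 94.4 in OA, against 321.5 in OT1, 46.5 in OT2, 18.8 and 15.3 in CH, and 2081 and 1561 in CT.

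**Figure D4:**
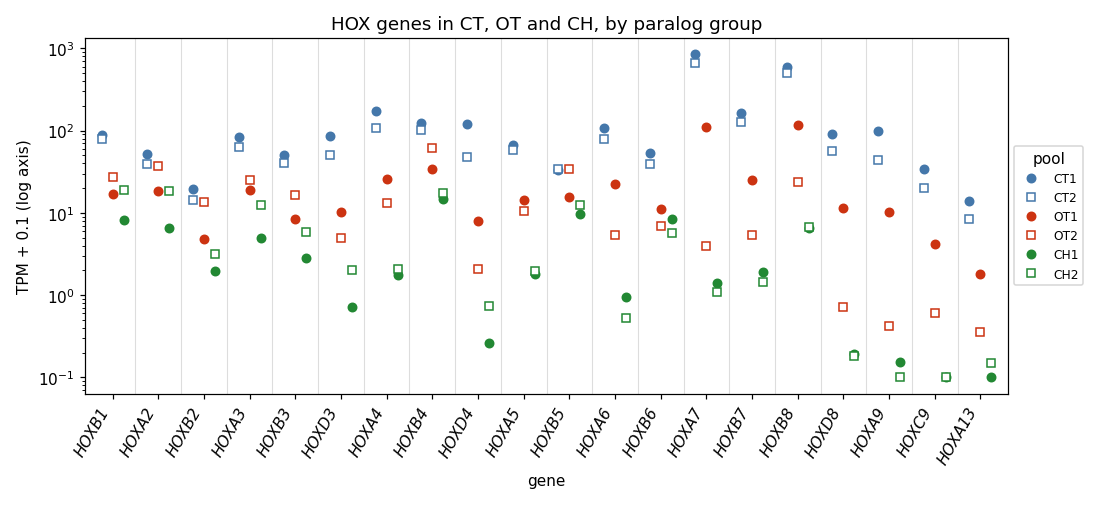
Transcript level of HOX genes in each pool, ordered by paralog group, as TPM + 0.1 on a log axis, for CT (blue), OT (red) and CH (green), with filled circles for the first pool and open squares for the second. In groups 7 to 9, OT1 lies between CH and CT and OT2 lies nearer to the CH pools than OT1 does, as for HOXA7 at 112.0 TPM in OT1 and 3.89 in OT2. On log2(TPM + 1), OT2 covers 72.5% of the distance from CT to CH for HOXB8 and 93.9% for HOXA9.

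Trunk-side genes that OT kept were led by MT4 and MT3, metal-binding metallothioneins, CALM2, a calmodulin gene, KRT8, an epithelial keratin, ASTL, a metalloprotease, and PLET1. MT4 was at 559.8 and 893.4 TPM in CT, 3166 and 1344 TPM in OT and 64.8 and 65.5 TPM in CH, with a log2 fold change of 5.15 ± 0.81 (edgeR adjusted p = 0.0228) against CH, and at 7877 TPM in CA. KRT8 was at 635.3 and 836.1 TPM in CT, 657.7 and 648.4 TPM in OT and 361.6 and 390.0 TPM in CH. PLET1 was at 29.8 and 196.5 TPM in CT, 532.4 and 61.8 TPM in OT and 1.38 and 1.45 TPM in CH, with a difference of 8.61-fold between the OT pools. In both area opaca pools, these genes were within or above the range of CT, apart from CALM2, which was at 1368 TPM in CA and 1477 and 1428 TPM in CT.

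The surface ectoderm genes GATA2 and GRHL3 were also kept, GATA2 at 58.4 and 41.6 TPM in OT against 15.2 and 15.8 TPM in CH and GRHL3 at 20.4 and 7.40 TPM in OT against 3.14 and 1.97 TPM in CH. The placode genes of the same list went the other way, EYA1 at 1.66 and 2.20 TPM in OT against 11.2 and 13.7 TPM in CH and DLX3 at 4.82 and 8.14 TPM in OT against 24.1 and 20.5 TPM in CH. In all, 4 of the 16 tested were called higher and 4 lower, but 0 higher and 2 lower without CH1, without CH2 or without OT1. Among all tested genes 3.74% were called higher and 2.4% lower. GATA2 and GRHL3 were at 87.05 and 31.01 TPM in CA.

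Genes above both tissues, by abundance, were CST3, a cystatin, CLTA, a clathrin light chain, mouse Otx2, MGST3, a microsomal glutathione transferase, CLDN3, a tight junction claudin, and LGMN, a lysosomal protease. CST3 was at 704.4 and 856.1 TPM in OT against 422.5 and 505.6 TPM in CH and 442.7 and 478.0 TPM in CT (log2 fold change 0.75, edgeR adjusted p = 0.0228), and CLDN3 at 409.2 and 301.8 TPM in OT against 147.5 and 145.6 TPM in CH (log2 fold change 1.31, edgeR adjusted p = 0.0228). CA held CST3 at 841.1 TPM, CLDN3 at 320.1 and LGMN at 708.8. Apart from mouse Otx2, the log2 fold changes of these genes over CH ran from 0.53 for MGST3 to 1.63 for LGMN.

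Of the endoderm and yolk sac list, 5 of 18 tested genes were called higher in OT than in CH and 0 lower, with a median of 2.70, against 3.74% of all tested genes called higher. TTR, transthyretin, was at 4814 and 4852 TPM in OT, 1081 and 2386 TPM in CT and 420.0 and 665.1 TPM in CH, with a log2 fold change of 3.20 (edgeR adjusted p = 0.0268), and APOA1, an apolipoprotein, at 7184 and 3571 TPM in OT, 1025 and 2968 TPM in CT and 186.7 and 259.6 TPM in CH. The list summed to 16106 and 10804 TPM in OT, 1033 and 1573 in CH, 2657 and 7131 in CT, 38752 in CA and 52715 in OA. All 18 tested members had a positive log2 fold change in OT over CH, where the median of all tested genes was 0. RBP4 was at 0 in all pools and ALB was at 1.12 and 0.425 TPM in OT. The number called higher was 0 without CH1, 1 without CH2, 1 without OT1 and 10 without OT2. The part of yolk sac transcripts in the differences of OT from CH was not tested.

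Of the blood and endothelium list, 0 of 18 were called by edgeR, 8 had an unadjusted p under 0.05 and 6 were called by DESeq2, all higher in OT. Of all 16611 tested genes, edgeR called 6.14% and 4626 had an unadjusted p under 0.05, while DESeq2 called 2984 in either direction. The list summed to 21071 TPM in OT1, 2740 in OT2, 1342 and 1536 in CH, 14168 and 8147 in CT, and 38438 in CA. HBZ, an embryonic globin, was at 7857 and 873.3 TPM in OT and 369.7 and 390.9 TPM in CH. SPI1, a myeloid transcription factor, was at 10.7 and 4.73 TPM in OT with 0 reads in CH, at least 92.1-fold above the CH limit.

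**Figure D5:**
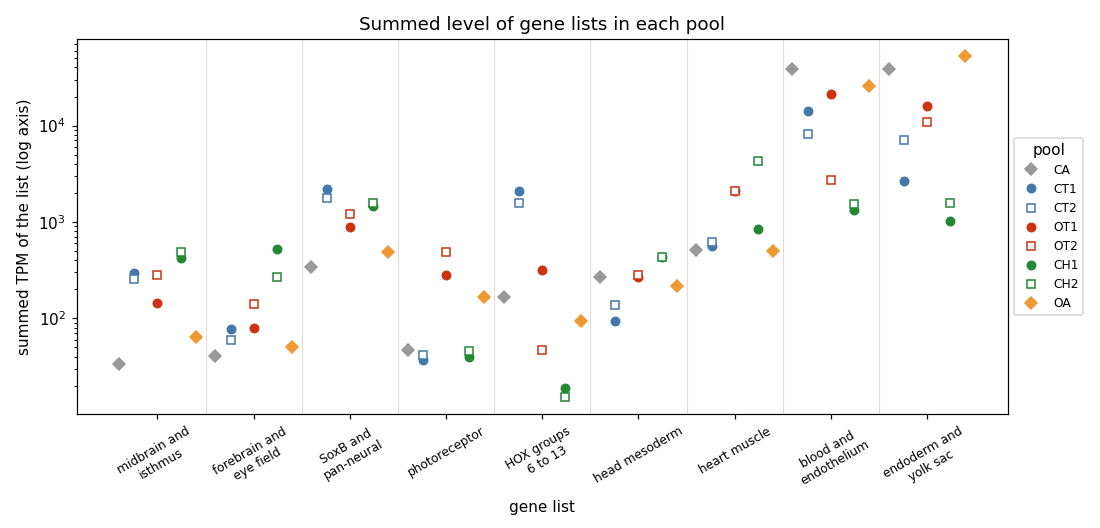
Summed TPM of 9 gene lists in each pool on a log axis, for the control area opaca (CA, grey), CT (blue), OT (red), CH (green) and the Otx2-electroporated area opaca (OA, orange), with filled circles for the first pool, open squares for the second and diamonds for the single area opaca pools. The endoderm and yolk sac list is at 16106 and 10804 TPM in OT and at 1033 and 1573 in CH, the heart muscle list at 846.2 and 4290 in CH, and HOX groups 6 to 13 at 321.5 in OT1 and 46.5 in OT2.

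Apart from mouse Otx2, the largest increases in OT over CH, among called genes of at least 5 TPM without overlap, were those of ARR3, GUCA1A, SPI1, IFI6, IMPG1, SLC5A12, PDC, RNF186, TGM4, PLET1 and PNPLA1. IFI6, an interferon-inducible gene, was at 21.2 and 4.56 TPM in OT with 0 reads in CH, and at 76.3 TPM in CA. TGM4, a transglutaminase, was at 309.2 and 20.8 TPM in OT and 0.749 and 0.528 TPM in CH, and at 463.8 TPM in CA. PNPLA1, a lipid-processing enzyme of the epidermis, was at 23.1 and 29.5 TPM in OT, above CA (2.22 TPM) and OA (7.13 TPM) as well as CH (0.122 and 0.185 TPM). Of 10 tested genes of the interferon response list, 1 was called higher in OT, PARP9, at 7.79 and 9.51 TPM in OT against 2.76 and 4.12 TPM in CH. Among all tested genes 3.74% were called higher. CA and OA both exceeded every CH and CT pool in 4 of the 10, against 15.5% of all tested genes.

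Below both tissues were, by abundance, HMGA1, an architectural chromatin protein, CTH, a cystathionine lyase, NOLC1, PWP2 and BMS1, nucleolar factors of ribosome assembly, and NRARP, a Notch-induced regulator. HMGA1 was at 208.6 and 246.2 TPM in OT, 381.1 and 378.3 TPM in CH and 409.2 and 324.1 TPM in CT (log2 fold change -0.73, edgeR adjusted p = 0.0435), and NRARP at 26.8 and 51.9 TPM in OT, 82.2 and 93.2 TPM in CH and 126.2 and 118.0 TPM in CT (log2 fold change -1.13, edgeR adjusted p = 0.0466). CA and OA were below every CH and CT pool in 56 of these 58 genes. The same held for 121 of the 132 genes below CH alone and for 37.4% of all tested genes. Only FARP1 and FAM171B were trunk-side genes called below CH, FAM171B at 19.3 and 26.2 TPM in OT, 41.2 and 40.2 TPM in CH and 84.5 and 74.4 TPM in CT (log2 fold change -0.82, edgeR adjusted p = 0.0377). Without CH1, CH2, CT1, CT2, OH1 or OH2, 0 genes had that pattern, and 8 had it without OT1 and 3 without OT2.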

How the data were processed

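RNA was sequenced from 10 pools of chicken embryo tissue, and OT1, OT2, CH1 and CH2 were compared with CT1 and CT2 as the starting level. Per the file headers and methods, the authors mapped reads to the GRCg7w assembly with mouse Otx2 and EGFP sequences added, and quantified genes with StringTie. The aligner, versions and strand setting are not given in the sources used here, so a gene and its antisense partner may share reads. The deposited read counts per gene were tested as given. The deposited TPM values, which the authors scaled for length and for the total of each pool, were used for levels, distances and shares. The 10 FPKM columns were not used.

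Counts of the 8 CH, OH, CT and OT pools were filtered with filterByExpr, which left 16611 of 25443 genes, normalized by TMM, and fitted with the quasi-likelihood model of edgeR 4.0.16 in R 4.3.3. The biological coefficient of variation was 27.9% with 4 residual degrees of freedom. OH pools entered the fit to share the estimate of spread. Alternatives used DESeq2 1.42.0, limma 3.58.1, other normalization, filters and sets of pools, and left out one pool at a time. Positive log2 fold changes mean higher in OT. Distances are Euclidean on log2(TPM + 1).

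The members and the gene lists were chosen with earlier results of these data known. Genes were named if they belonged to a list, if they were among the 12 largest increases or decreases called between OT and CH at a level of at least 5 TPM and without overlap, or if they were among the 6 most abundant of a class. GABRA6 was named after its values were seen. Genes without an assigned symbol and those on chromosome W were not named by rank. Of 25443 gene IDs, 23112 matched the RefSeq GRCg7b table, which gave names and chromosome numbers only. List symbols without a match were not analysed here. Of the smaller lists, paraxial mesoderm and somite genes gave 1 higher and 2 lower calls of 15, and notochord and floor plate genes 1 higher and 0 lower of 11. All tested genes gave 3.74% higher and 2.4% lower calls. Some list members and ranked genes are not reported here by name, but they remain in the counts and sums. The scripts were tested on simulated data.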

Additional observations from a re-analysis of the deposited data

How the results depend on the processing

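Calls between OT and CH kept their direction in each alternative, which their selection on the same pools largely fixed beforehand. Their number did not hold. DESeq2 called 2984 genes between OT and CH, 2449 between CH and CT and 2755 between OT and CT, with 373 lacked, 121 part-way, 511 reached, 42 overshot, 481 kept, 71 part-way down, 265 cleared, 15 called below CH on the trunk side, 556 above both, 344 below both, 628 above CH only and 353 below CH only. With only the CH, CT and OT pools fitted, the 3 numbers were 262, 843 and 279, with 55 lacked, 8 part-way, 71 reached, 2 overshot, 76 kept, 7 part-way down, 50 cleared, 0 called below CH on the trunk side, 33 above both, 4 below both, 59 above CH only and 18 below CH only, and with only CH and OT the first was 111. A test against a fold of 1.5 called 210. With limma on log2(TPM + 1), there were 254 lacked, 20 part-way, 111 reached, 3 overshot and 1 called below CH on the trunk side, and on log2(TPM + 0.1), 5 overshot. With RLE normalization and with no filter on low counts, 1 gene each was called below CH on the trunk side. Without the genes highest in the area opaca, an alternative chosen after seeing the data, 584 genes were called, with 59 kept, 55 above both and 39 above CH only. Same-numbered pools do not share an origin in the labels, and the correlation of their deviations ran from -0.155 for CT and OT to 0.143 for OH and OT and was 0.004 for CH and OT, so the numbers were not taken to pair the pools; a replicate block gave 405 calls between OT and CH, with 103 lacked, 20 part-way, 4 overshot, 65 kept, 10 part-way down, 0 called below CH on the trunk side, 92 above both, 17 below both, 64 above CH only and 30 below CH only. Leaving out one pool at a time, with the lone pool of a group assumed to vary like the other groups, gave 12 to 2219 calls between OT and CH, 416 to 1785 between CH and CT and 53 to 1039 between OT and CT. The classes then held 6 to 344 lacked, 4 to 56 part-way, 12 to 326 reached, 0 to 10 overshot, 100 to 666 brain-side unresolved, 0 to 302 kept, 0 to 40 part-way down, 8 to 199 cleared, 0 to 8 called below CH on the trunk side, 68 to 462 trunk-side unresolved, 2 to 319 above both, 0 to 104 below both, 0 to 729 above CH only, 0 to 315 below CH only genes. The trunk-side share of the distance from CT to CH ran from 44.2 to 64.0% in OT1 and from 57.4 to 76.4% in OT2, and the ratio of the OT-CT to the CT-CH distance from 0.825 to 1.055, or 0.817 over the 500 most variable genes. Among the named genes, sign changes of the OT to CH log2 fold change were limited to uncalled genes. With limma on log2(TPM + 0.1) it became 0.0556 for TNNT2, 0.64 for ACTC1 and 0.55 for MYL2. With limma on log2(TPM + 1) it became 0.0514 for TNNT2, 0.63 for ACTC1 and 0.54 for MYL2. With the replicate block it became 0.40 for ACTC1 and 0.29 for MYL2. When one pool at a time was left out, the value ran from -4.26 to 1.98 for RAX (CH1), from -2.14 to 0.11 for NKX6-2 (OT1), from -0.0358 to 0.38 for BMP4 (OT1), from -0.63 to 0.28 for OTX5 (CH1), from -0.098 to 0.67 for SAG (OT2), from -0.76 to 0.11 for AXIN2 (OT2) and from -1.55 to 0.16 for CYP1B1 (OT1), with the pools whose omission turned the sign in brackets. It ran from -1.18 to 1.33 for TNNT2 (CH2), from -1.07 to 2.42 for ACTC1 (CH2), from -1.26 to 1.25 for TBX5 (CH2), from -0.48 to 0.98 for ALB (OT1), from -0.22 to 0.00855 for TPM1 (OT1), from -0.24 to 0.015 for ID2 (OT2), from -1.08 to 2.24 for MYL2 (CH2) and from -0.0496 to 0.17 for MYL9 (OT1). Of 2462 combinations of a named gene and an alternative, 1762 kept direction and side of the threshold, 636 lost the call and 41 gained it. The cause of these changes was not tested.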
